A study of Sus scrofa with 16 samples.

Results

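Gene expression in the distal small intestine was compared with that in the proximal small intestine of the same preterm piglets, in animals that received no antibiotics. The 8 arrays of the comparison, out of 16 in the series, are those whose sample names call the piglet untreated, 4 distal and 4 proximal. They were paired by the number that ends each name (83, 88, 89 and 92), which is read here as the animal's. The piglets, a Landrace, Large White and Duroc cross, were 24 animals taken from 2 sows by caesarean section on gestation day 105. They were fed mainly through a vascular catheter at first and then by formula through an oro-gastric tube, and tissue was taken on day 5. The 13 control piglets, from which the 4 animals come, were given saline in place of antibiotics, so "control" is used below for the labels' "untreated". The other 8 arrays came from piglets given ampicillin, gentamicin and metronidazole, both oral and intramuscular, and 3 of those animals have an array of both segments. How far along the gut each segment lay, litter, sex and any lesion of each animal were not used here.

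The small intestine changes in function along its length. Its upper part, whose identity depends on the transcription factor GATA4, handles most sugar, fat, iron and folate uptake and starts luminal protein digestion through enteropeptidase. Its lower part recovers bile acids and vitamin B12, carries more of the endocrine L cells that make glucagon-like peptides, and exchanges chloride for bicarbonate. In newborn and suckling mammals the lower part also holds enterocytes that take up milk proteins whole and break them down in large lysosomes.

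RNA was measured on an Affymetrix porcine array, on which a probe set reports 1 transcript through probes near its 3′ end, and values are on the log2 scale, where 1 unit is 2-fold. Between 45.2% and 46.5% of the probe sets of an array lay above a log2 value of 5, and 39.8% of all values lay under 2.5, close to the lowest value of 2.14. Over the 11089 probe sets tested, arrays of 1 segment correlated with each other at 0.891 to 0.959 and arrays of different segments at 0.874 to 0.95. With 4 animals, precision is limited by their number. Both segments carried the markers of small intestinal epithelium. Villin (VIL1) lay at 12.95 to 13.27 proximally and 12.82 to 13.44 distally, and EPCAM at 14.05 to 15.08 and 14.11 to 14.66. KRT8 had means of 13.26 proximally and 12.05 distally, and ANPEP of 11.20 and 12.52 (limma adjusted p = 0.541 and 0.486). Summed over the 7 epithelial markers on the array (of 8 listed), the log2 levels were 87.08 to 92.30 and 88.26 to 90.74. GATA4 lay at 4.89 to 6.39 in the proximal and 2.29 to 2.80 in the distal arrays, with no overlap, and was too dim to be tested. FABP6, the ileal bile acid-binding protein and the only one of 4 ileal markers with a named probe set, lay at 2.32 to 7.40 proximally and 6.64 to 11.03 distally, so that the segments overlapped. Exocrine pancreas markers (3 of 6 on the array) lay at 2.14 to 2.19 in all 8 arrays, and none of 3 colon markers had a named probe set. Of the T cell markers, 3 of 3 were on the array and none was bright enough to be tested. Smooth muscle markers (3 of 4 on the array) summed to 32.07 to 34.24 and 30.83 to 33.90, macrophage markers (2 of 3) to 16.47 to 20.68 and 16.67 to 18.91, and neutrophil markers (2 of 3) to 8.83 to 15.82 and 8.35 to 17.42, with the segments overlapping in each. Because whole tissue was used, fewer cells of a type and less RNA per cell cannot be told apart. As a measure of RNA integrity, the signal of 5′ minus that of 3′ probe sets for actin and GAPDH averaged −3.79 ± 0.89 in proximal and −4.28 ± 0.46 in distal arrays (SD, n = 4 each). The paired difference was −0.62, −1.02, 0.46 and −0.78 in animals 83, 88, 89 and 92 (two-sided exact permutation test by sign flips, p = 0.25; with 4 pairs the smallest possible p is 2 of 16 sign patterns).

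In the paired fit with limma, 18 of 11089 probe sets passed an adjusted p of 0.05, 15 higher in distal tissue (0.135% of those tested) and 3 lower (0.0271%). Of the 4560 genes that these probe sets name, 6 were higher (0.132%) and 1 was lower (0.0219%). The 6 were SPAI-2, PI3, SLPI, DPEP1, GUCA2A and TLR2, and the gene lower in distal tissue was EPHX1. The other 11 probe sets had no gene name in the annotation used here. All 18 went the same way in 4 of 4 animals, with no overlap between the segments. The calls rest on these same values, so this is no separate result, and no share over all probe sets is given. Before adjustment 932 probe sets had a p under 0.05. The calls depended on leaving out dim probe sets: over all 23999 probe sets limma called 0, with 1082 at an unadjusted p under 0.05 and a lowest adjusted p of 0.141. They also depended on the animals, with 10, 6, 14 and 11 calls without animals 83, 88, 89 and 92 in turn.

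Of the named genes that passed, the 3 with the largest differences encode secreted protease inhibitors. SPAI-2, a pig member of the trappin family known as an inhibitor of the sodium pump, was at 2.31, 2.35, 2.26 and 2.14 in the proximal arrays of animals 83, 88, 89 and 92, and at 12.37, 11.79, 11.34 and 11.57 in their distal arrays. It was thus at the floor in every proximal array and bright in every distal one. PI3 (elafin), a trappin that blocks neutrophil elastase, was at 2.58, 2.60, 2.15 and 2.55 proximally and at 10.91, 10.97, 10.07 and 11.89 distally, the same pattern. SLPI, the secretory leukocyte peptidase inhibitor, which also has antimicrobial activity, was measured in both segments: 7.34, 8.37, 7.76 and 6.89 against 14.95, 13.99, 12.96 and 13.70. The differences were 9.50 for SPAI-2 (SE 0.24, limma adjusted p = 8.69e-05), 8.49 for PI3 (SE 0.28, adjusted p = 0.00021) and 6.31 for SLPI (SE 0.43, adjusted p = 0.0054). For SLPI this is 79.5-fold. Where all arrays of the lower segment lay at or under the filter level of log2 5, a fold is given as a bound, the mean of the higher segment over that level: at least 109-fold for SPAI-2 and at least 62.3-fold for PI3. The filter asked for 4 arrays above that level, so such a probe set passed it through the higher segment alone. The proximal SD of 0.09 for SPAI-2 and 0.22 for PI3 is that of floor values, so their SE and adjusted p hold little proximal spread. SPAI-2 and PI3 passed in each of the 4 fits without 1 animal, and SLPI in 3 of 4 (adjusted p = 0.0649 without animal 88). SPAI-2 and PI3 have related sequences, and how far the probes of one also bind the other's transcript is uncertain.

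**Figure D1:**
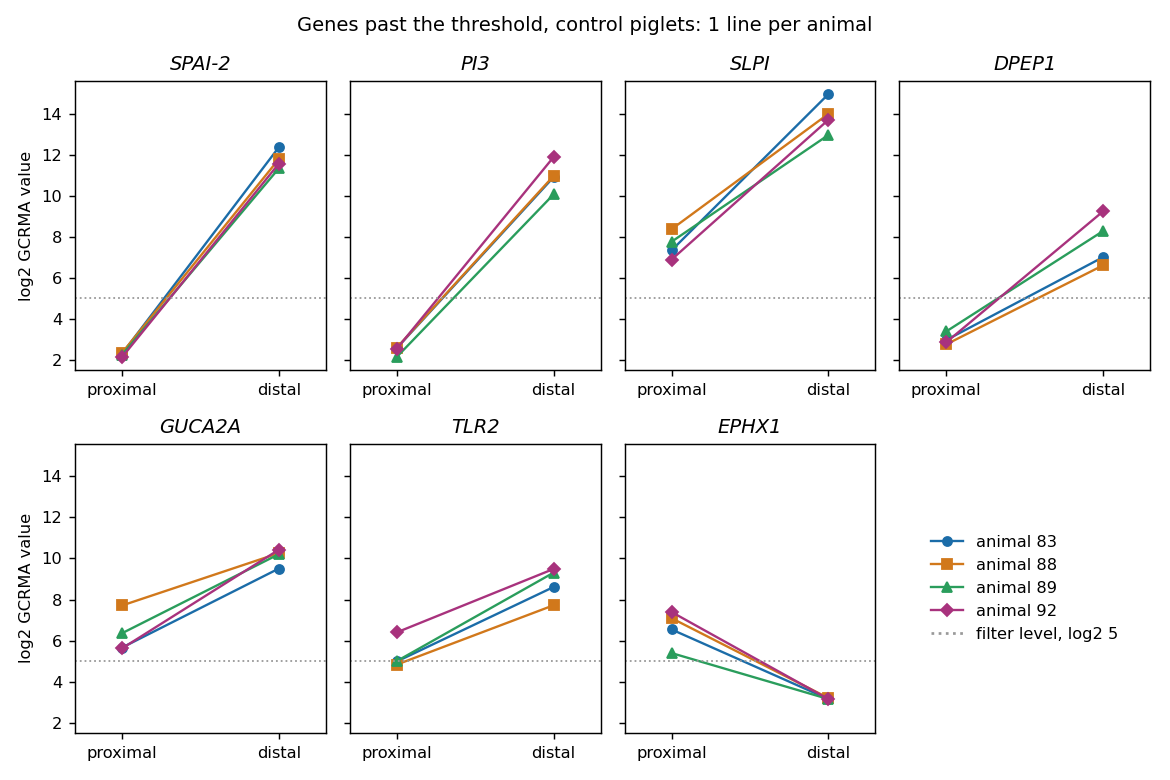
Levels of the 7 genes past the threshold in the control piglets, as log2 GCRMA values on the y axis for the proximal and distal array of each animal (1 line per animal; the dotted line is the filter level of log2 5). The lines of the first 6 genes go up in all 4 animals and those of EPHX1 go down, and SPAI-2 and PI3 start at 2.14 to 2.60.

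The 3 inhibitor genes are close neighbours in the pig genome. In RefSeq's annotation of Sscrofa11.1, PI3 and SPAI-2 are adjacent entries and 3 entries separate SPAI-2 from SLPI. Of the 12 annotated genes on each side of this group, 4 were tested, chosen here after the inhibitors' values were seen. They are YWHAB, SDC4, SYS1 and PIGT. Their differences lay between −0.42 (SDC4) and 0.34 (PIGT), and 0 of 4 passed the threshold (limma adjusted p = 0.647 to 0.959).

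The other called genes span digestion, secretion, bacterial sensing and detoxification. DPEP1, a membrane dipeptidase of the brush border, was at 2.97, 2.76, 3.39 and 2.86 in proximal tissue and at 7.01, 6.61, 8.28 and 9.24 in distal tissue, at least 6.89-fold (difference 4.79, SE 0.44, limma adjusted p = 0.0255). GUCA2A, which encodes guanylin, the peptide that acts on guanylate cyclase C and so on salt and water secretion, was at 5.66, 7.71, 6.36 and 5.62 against 9.51, 10.26, 10.21 and 10.43. That is 13.6-fold (difference 3.77, SE 0.37, adjusted p = 0.0297). A second GUCA2A probe set lay at 2.14 in all 8 arrays and was not tested, and with the mean of both the difference was 1.88 and the call was lost (adjusted p = 0.0902). Its receptor, GUCY2C, was among the tested genes with a difference of −0.05 (adjusted p = 0.975). TLR2, the receptor for bacterial lipoproteins, was at 4.98, 4.83, 5.00 and 6.40 against 8.61, 7.72, 9.31 and 9.49, or 11.2-fold (difference 3.48, SE 0.29, adjusted p = 0.0179). Its proximal values lay close to the filter level in 3 animals and above it in animal 92. EPHX1, microsomal epoxide hydrolase, was at 6.54, 7.09, 5.39 and 7.39 in proximal tissue and at 3.15, 3.20, 3.15 and 3.15 in distal tissue, at least 3.04-fold lower (difference −3.44, SE 0.36, adjusted p = 0.0344). Its distal values have almost no spread and all lie under the filter level. EPHX1 thus passed the filter through its proximal arrays alone, and DPEP1 through its distal arrays alone.

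Each of these 4 calls was lost in at least 3 of the 4 fits without 1 animal. Without animal 83, 88, 89 or 92 in turn the limma adjusted p was 0.103, 0.0924, 0.258 and 0.0349 for DPEP1, 0.192, 0.0582, 0.277 and 0.123 for GUCA2A, 0.114, 0.0763, 0.0499 and 0.0928 for TLR2, and 0.194, 0.12, 0.0357 and 0.214 for EPHX1. The differences themselves moved little, to between 4.26 and 5.10 for DPEP1, 3.42 and 4.17 for GUCA2A, 3.20 and 3.68 for TLR2, and −3.84 and −3.17 for EPHX1. With the 5′ minus 3′ measure as a covariate, SPAI-2, PI3 and TLR2 passed (adjusted p = 0.00796, 0.0113 and 0.0368) and the other 4 genes did not (0.104 for SLPI and EPHX1, 0.141 for DPEP1 and GUCA2A).

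Among the unnamed probe sets, Ssc.29970.1.A1_at was at 9.14, 9.54, 10.41 and 10.31 in proximal tissue and at 2.15, 2.52, 2.52 and 2.52 in distal tissue, at least 28.8-fold lower (limma adjusted p = 0.00021). Ssc.27342.1.S1_at was at least 11.1-fold lower (difference −6.19, adjusted p = 0.0012). On the higher side, Ssc.30053.1.A1_at differed by 6.66 and Ssc.30166.1.A1_at by 6.27 (adjusted p = 0.0277 and 0.0018). The 2 most negative differences among the calls thus have no gene name here.

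A difference of at least 2-fold in each of the 4 animals, a description without a test, was seen for 20 genes higher in distal tissue (0.439% of 4560) and 6 lower (0.132%). The 7 called genes are among these 26, and in 19 of the 26 the segments did not overlap. The 26 were chosen on these same differences, and the share of all genes without overlap is not given. The next values are mainly for genes of this set that did not pass the threshold, named after their values were seen unless they belong to the panel of 27 landmark genes described further on.

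Genes of ion transport and endocrine cells were among them. SLC26A3, the chloride-bicarbonate exchanger of the lower gut, was at 7.53, 6.95, 9.42 and 3.32 in proximal tissue and at 11.38, 11.41, 10.95 and 11.42 in distal tissue (difference 4.49, SE 0.96, limma adjusted p = 0.292). Its distal levels were alike in all animals and the proximal levels were not. SLC26A6, a related anion exchanger, differed by 2.33 (adjusted p = 0.19). Its proximal values, 2.72 to 4.46, all lay under the filter level, so the fold is bounded only at 1.67 or more. CLCN5, a chloride-proton exchanger of endosomes, differed by 2.16 (adjusted p = 0.214). GCG, the gene of proglucagon from which L cells make glucagon-like peptides, was at 9.36, 6.38, 6.55 and 7.33 against 11.53, 11.61, 11.64 and 11.61 (difference 4.19, SE 0.52, adjusted p = 0.079). The 4 distal values were nearly equal (SD 0.05). GCG passed with no replicate block (adjusted p = 0.0306) and without animal 83 (0.0145), and did not without animals 88, 89 and 92 (0.154, 0.306 and 0.426). CHGB, chromogranin B of secretory granules, differed by 1.87 (adjusted p = 0.114). CCK, cholecystokinin of the upper gut's I cells and a panel gene outside the set of 26, differed by −0.65, −1.80, −1.07 and −0.36 in animals 83, 88, 89 and 92 (adjusted p = 0.453).

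Genes of bile acid and lipid handling followed. FABP6 was at 2.32, 7.40, 3.49 and 2.33 in proximal tissue and at 11.03, 10.17, 7.32 and 6.64 in distal tissue (difference 4.90, SE 0.92, limma adjusted p = 0.233). Every animal's distal value exceeded its proximal one by at least 2.77, but animal 88's proximal value lay above the distal values of 2 other animals. APOC2, the cofactor of lipoprotein lipase, was at 2.88, 6.53, 7.82 and 2.14 against 9.97, 11.45, 14.10 and 13.17 (difference 7.33, SE 0.92, adjusted p = 0.079, and 0.0305 without animal 92). ANGPTL4, an inhibitor of that lipase, differed by 2.57 (adjusted p = 0.25), GK, glycerol kinase, by 1.73 (adjusted p = 0.221) and INSIG1, which holds back the activation of sterol-regulated transcription, by 1.56 (adjusted p = 0.141).

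The remaining distal-higher genes were GGH, which trims folate polyglutamates (difference 2.27), ZBP1, a sensor of nucleic acids (2.13), TIFA, an adaptor in the response to bacterial sugars (1.84), and NEU1, a lysosomal sialidase (1.63). NEU1 was at 6.36, 5.87, 7.95 and 7.17 in proximal and at 7.63, 7.31, 10.07 and 8.87 in distal tissue. Animal 89 had the higher value in both segments, and the within-animal differences lay between 1.27 and 2.12.

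Of the 6 genes at least 2-fold lower in distal tissue, 3 besides EPHX1 are enzymes or transporters of absorbed compounds. UGT2B31, a glucuronosyltransferase, was at 8.04, 6.67, 9.08 and 7.77 in proximal and at 4.71, 5.20, 4.23 and 5.11 in distal tissue (difference −3.08, SE 0.52, limma adjusted p = 0.219). AKR1CL1, an aldo-keto reductase, differed by −2.41 (adjusted p = 0.232). SLC2A5, the fructose transporter GLUT5, was at 5.35, 8.47, 6.95 and 6.94 against 3.94, 7.10, 4.11 and 3.59 (difference −2.24, SE 0.40, adjusted p = 0.219). Animal 88 had the higher value of SLC2A5 in both segments, so that the segments overlapped while each pair did not. BPI, the bactericidal/permeability-increasing protein, differed by −2.33 (adjusted p = 0.233), and TM4SF5, a membrane protein with 4 transmembrane passes, by −3.58 (adjusted p = 0.219), with its proximal value at 12.80 in animal 88 and 8.68 to 9.34 in the others.

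**Figure D2:**
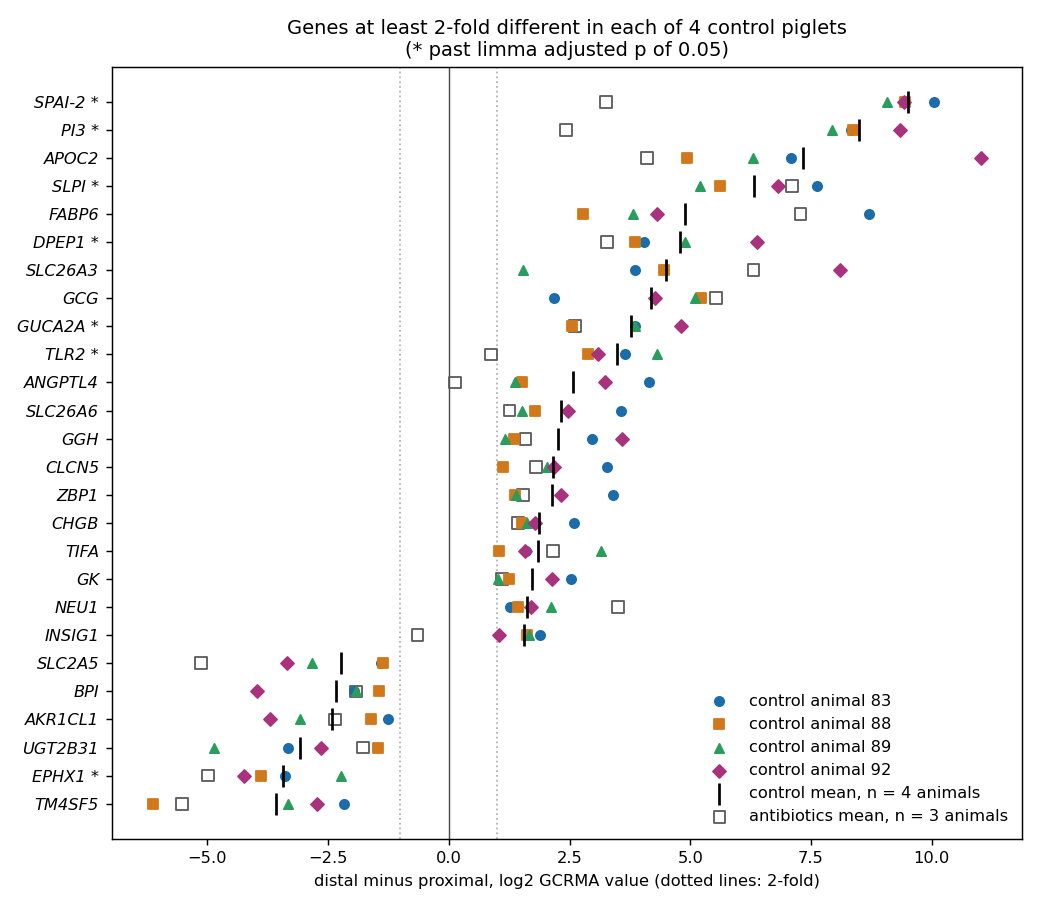
Distal minus proximal difference (x axis, log2 GCRMA value) of the 26 genes (y axis) at least 2-fold different in each control animal, with 1 coloured point per control animal, a black bar at the control mean (4 animals) and an open square at the mean of the antibiotics animals (3 animals). All coloured points lie beyond the dotted 2-fold lines because that chose the genes, and the open square lies on the other side of 0 for INSIG1 alone.

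For other genes the segment difference was large in some animals and absent or opposite in others. VNN1, pantetheinase, was at 2.16, 10.95, 8.68 and 2.74 in proximal tissue and at 10.71, 10.84, 10.61 and 11.38 in distal tissue. The difference of 4.75 (SE 1.57, limma adjusted p = 0.507) comes from animals 83 and 92, whose proximal arrays lay at the floor, while animal 88 had nearly equal levels. AMN, the membrane partner of cubilin in vitamin B12 uptake, split the animals the same way, at 2.54, 8.01, 8.35 and 3.66 proximally and 7.85, 7.29, 9.97 and 9.69 distally. APOC3, an apolipoprotein of triglyceride-rich particles, was at 11.92, 15.65, 15.22 and 11.62 proximally and 15.18, 15.54, 11.07 and 15.11 distally. Again animals 83 and 92 had the lower proximal values, and animal 89 alone had a low distal value. APOC2, described above, had its 2 lowest proximal values in the same 2 animals.

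Among genes with a lower mean in distal tissue, which animals stood out varied from gene to gene. LEAP2, an antimicrobial and appetite-related peptide, was at 11.07, 11.63, 10.52 and 11.09 in proximal tissue and at 12.13, 11.83, 3.76 and 7.57 in distal tissue (difference −2.26, SE 1.26, limma adjusted p = 0.696). Proximal levels were alike in the 4 animals, and the distal levels lay above them in animals 83 and 88 and far below them in animals 89 and 92. TMPRSS15, the enteropeptidase that activates trypsinogen, had the most negative mean difference of all 4560 genes, −4.25 (SE 0.92, adjusted p = 0.302, and 0.0145 without animal 83). It was at 6.60, 12.82, 8.60 and 8.45 proximally and 6.18, 6.70, 2.82 and 3.79 distally, a difference of −0.42 in animal 83 and of −6.13 to −4.66 in the others. APOE, by contrast, was at 10.17 and 9.15 in the distal arrays of animals 89 and 92 and at 6.37 and 6.25 in those of 83 and 88, with proximal values of 5.05 to 6.37. FABP1, the liver-type fatty acid-binding protein of the upper gut, lay between 15.92 and 16.28 in 7 arrays and at 12.92 in the distal array of animal 89.

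**Figure D3:**
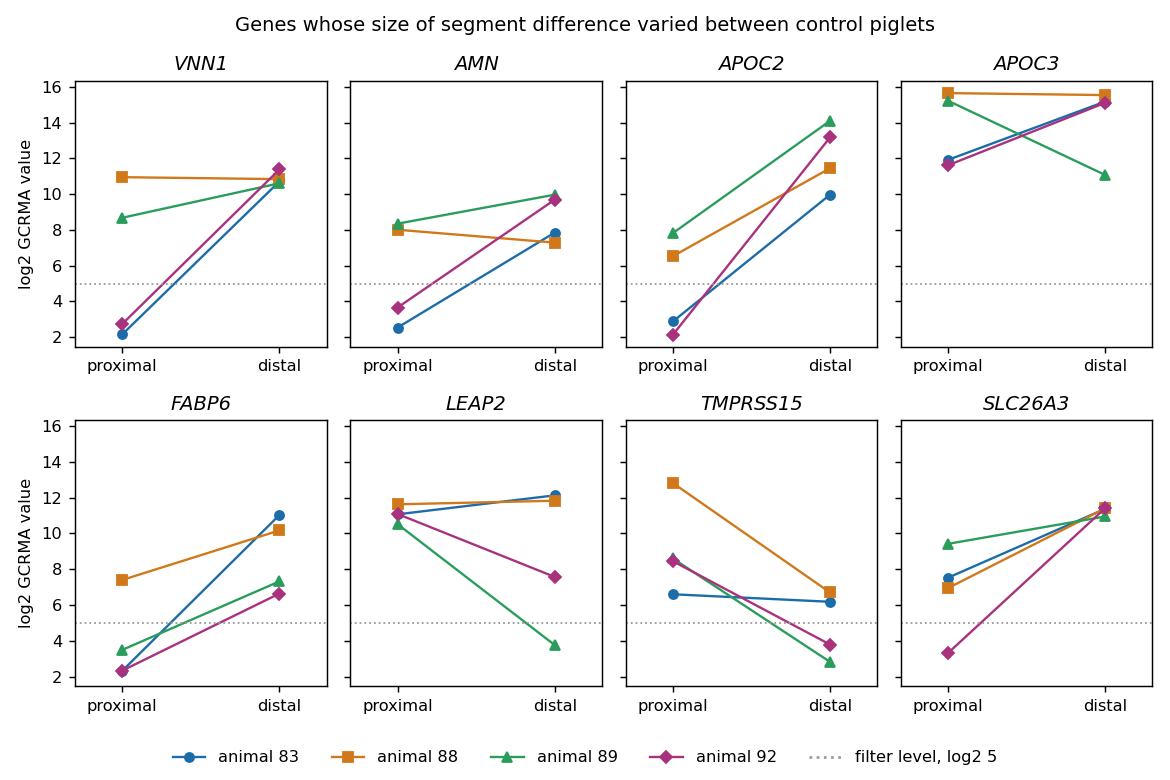
Levels of 8 genes, chosen after their values were seen, whose segment difference varied between the control piglets, as log2 GCRMA values (y axis) in the proximal and distal array of each animal (1 line per animal; dotted line, log2 5). VNN1, AMN, APOC2 and APOC3 have their lowest proximal values in animals 83 and 92, and LEAP2 is at 3.76 and 7.57 distally in animals 89 and 92 and at 12.13 and 11.83 in the others.

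Members of 39 gene lists, covering digestion, transport, defence and cell types, were then counted, 463 measured genes of 1140 listed. No list is tested as a set, and over all 4560 genes the background was a median of −0.00, with 2279 mean differences above and 2281 below 0, and 371 genes higher and 373 lower in distal tissue in 4 of 4 animals. Of 11 brush border and luminal peptidases 10 had a mean difference above 0 (median 1.07) and 1, DPEP1, passed. The peptidase median was uneven between animals, at 2.33, 0.39, 0.80 and 1.59 in animals 83, 88, 89 and 92. ENPEP, glutamyl aminopeptidase, was at 12.33, 13.25, 13.81 and 11.96 proximally and 14.86, 14.69, 14.72 and 14.91 distally (difference 1.96, limma adjusted p = 0.248). MEP1B, the meprin beta subunit, differed by 1.88 (adjusted p = 0.392) and ANPEP, aminopeptidase N, by 1.32 (adjusted p = 0.486). The exception was TMPRSS15. Of 5 genes of bile acid and B12 uptake, 4 had differences above 0 (median 1.36), 0 passed, and 2 were higher in all 4 animals. In animal 88 the list's median was −0.41. The 8 genes of ion and water transport had a median of 0.96, with 0 called, and the 8 enteroendocrine genes 0.86, with 0 called.

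Of 32 lysosomal genes, which encode acid hydrolases and membrane proteins of the lysosome, 30 had a mean difference above 0, with a median of 0.88. In 13 of the 32 the distal array was higher in 4 of 4 animals, and 0 of 32 passed the threshold. The list's median was 1.22, 0.10, 0.90 and 1.18 in animals 83, 88, 89 and 92, so that animal 88 showed almost none of it. Beside NEU1, examples are LGMN, legumain (10.11, 13.01, 13.45 and 12.36 against 13.14, 13.20, 14.85 and 14.42), PSAP, prosaposin (9.50, 9.98, 10.08 and 10.68 against 10.63, 10.21, 13.23 and 12.32), and CTSD, cathepsin D (6.69, 7.10, 7.18 and 7.46 against 8.08, 7.76, 9.20 and 8.36). Their limma adjusted p was 0.416, 0.458 and 0.311. HEXA and GLB1, which split sugars from glycolipids, differed by 1.42 and 1.26 (adjusted p = 0.393 and 0.261). This list was written after a result of these data had shown it, so its direction is a description of these arrays. Macrophages are also rich in lysosomes, and the 8 measured genes of the macrophage and monocyte list had a median of −0.03, with 3 of 8 above 0. Their part in the lysosomal values was not tested.

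Cholesterol synthesis genes had a median of 0.54, with 11 of 13 above 0, 6 of 13 higher in all animals, and 0 called. The list's median was above 0 in each animal, from 0.19 in animal 92 to 1.08 in animal 88. Of 20 interferon-stimulated genes 18 had a mean above 0 (median 0.62, 0 called), but the list's median was 1.70, −0.54, 0.25 and 0.60 in animals 83, 88, 89 and 92, and only 4 of 20 were higher in all animals. GBP1, an interferon-induced GTPase, was one of these 4, at 10.73, 10.72, 12.03 and 11.66 proximally and 13.54, 11.19, 13.70 and 13.12 distally (difference 1.60, limma adjusted p = 0.354).

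Defence genes had differences of both signs. Of 10 antimicrobial and epithelial defence genes, SPAI-2, PI3 and SLPI passed, and the 10 had 5 differences above and 5 below 0. DMBT1, a mucosal protein that binds bacteria, was at 14.01, 13.64, 13.92 and 14.58 proximally and at 13.58, 12.50, 13.90 and 13.72 distally (difference −0.62, limma adjusted p = 0.598). Of 6 goblet cell genes GUCA2A passed, and TFF2, a trefoil peptide, had the most negative mean (−1.59, adjusted p = 0.608). Its differences were −4.23, −0.05, −0.20 and −1.90 in animals 83, 88, 89 and 92, and the mean was −0.71 without animal 83. Among 18 cytokines and chemokines 0 passed. IL18, an epithelial cytokine, was lower in distal tissue in 4 of 4 animals (13.73, 12.78, 11.57 and 12.82 against 12.15, 12.33, 9.28 and 10.73, difference −1.60, adjusted p = 0.296).

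Medians below 0 included those of xenobiotic metabolism (−0.28, 15 of 22 below 0, EPHX1 called lower), the respiratory chain (−0.22, 25 of 31 below 0, 0 called), complement (−0.20, 14 of 19, 0 called), the cell cycle (−0.19, 14 of 19, 0 called) and vitamin and mineral uptake (−0.13, 7 of 12, 0 called). Of these 5 medians, that of complement was 0.06 with the 5′ minus 3′ covariate and that of xenobiotic metabolism 0.07 without animal 88. The respiratory chain's median came mainly from animal 89 (−0.71) and was 0.03, 0.01 and −0.18 in animals 83, 88 and 92. Of detoxifying enzymes, GSTA1, a glutathione transferase, was at 12.91, 13.85, 11.39 and 14.06 proximally and 12.23, 12.14, 8.28 and 12.41 distally (difference −1.79, limma adjusted p = 0.305), and CYP2C42, a cytochrome P450, differed by −1.78 (adjusted p = 0.403). Among 12 measured transcription factors of the gut axis 0 passed. HOXA3, a patterning factor, was at 6.45, 6.58, 7.20 and 5.77 proximally and 3.48, 5.87, 5.17 and 4.07 distally (difference −1.85, adjusted p = 0.256).

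**Figure D4:**
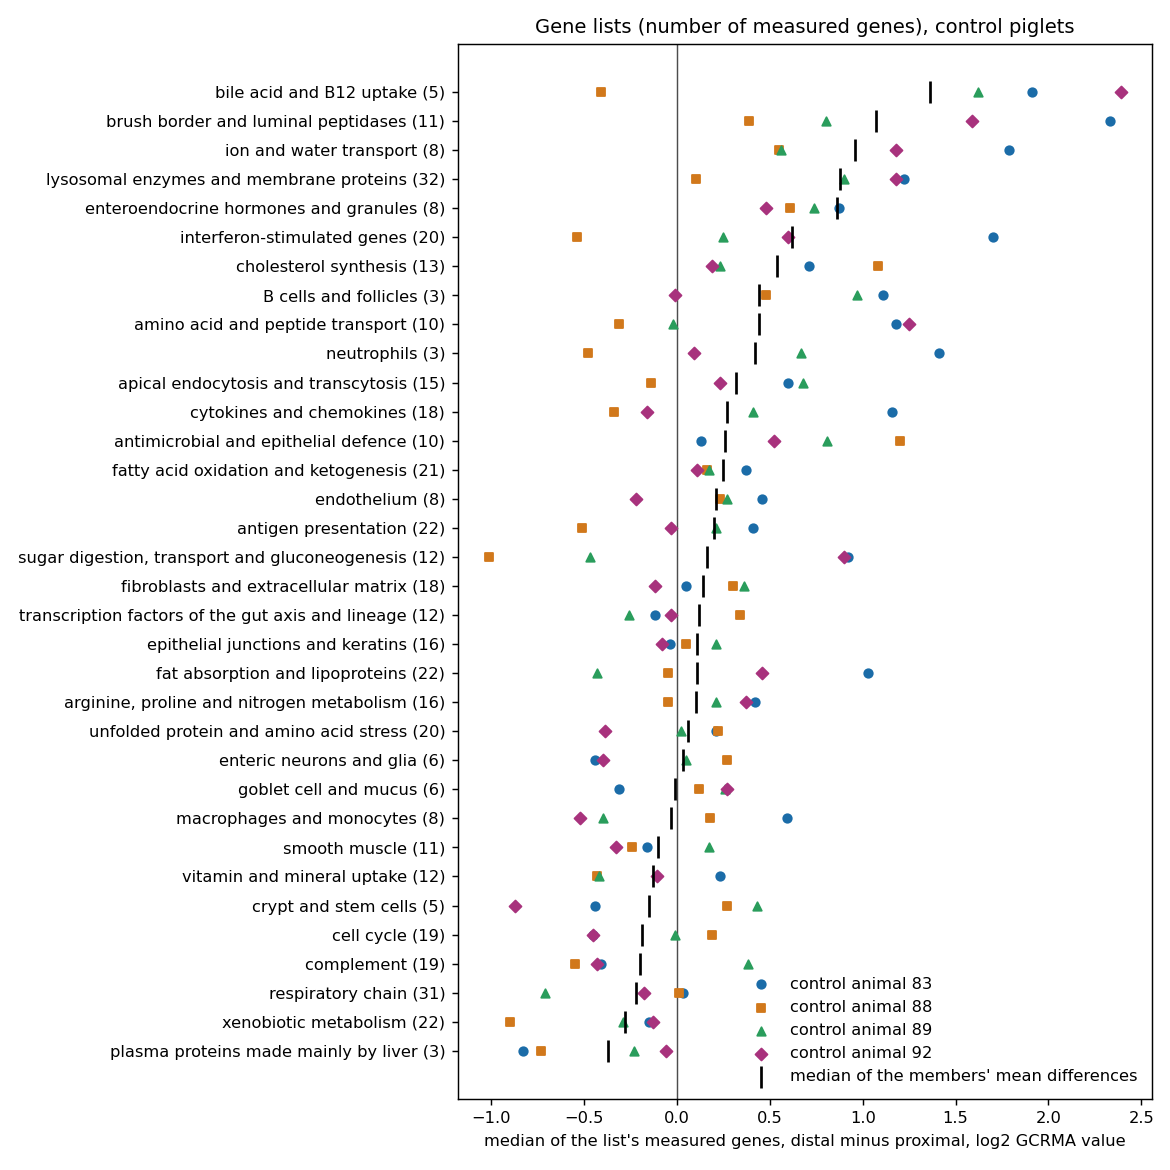
Median distal minus proximal difference (x axis, log2 GCRMA value) of the measured genes of the 34 lists with at least 3 of them (y axis, number measured in brackets), with 1 coloured point per control animal and a black bar at the median of the mean differences. The bars run from −0.37 to 1.36. Animal 88 lies below 0 for several lists where the bar lies above it. Among them are the bile acid and B12, interferon, neutrophil, antigen presentation and sugar digestion lists, the last at −1.01 with the bar at 0.16.

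Several genes thought of as landmarks of the upper or lower gut gave small or uneven differences. Of the panel of 27 such genes 14 were tested, 2 (GATA4 and TDH) were too dim, and 11 had no named probe set, among them LCT, SI, SLC10A2 and FGF19. FABP2, the intestinal fatty acid-binding protein, differed by 0.06, APOA4, an apolipoprotein of chylomicrons, by −0.32, and SLC15A1, the peptide transporter, by 0.76 (limma adjusted p = 0.985, 0.926 and 0.752). SLC5A1, the sodium-glucose transporter, was at 11.52, 14.45, 13.69 and 12.12 proximally and at 11.87, 12.81, 12.84 and 10.63 distally (difference −0.91, adjusted p = 0.588). CPS1 and ARG2, enzymes of the urea cycle and arginine breakdown, differed by 0.94 and −0.44 (adjusted p = 0.53 and 0.731).

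The antibiotics-treated piglets give a second set of segment differences from other animals. Fitted over all 16 arrays, their 3 animals with both segments had 457 of 11538 probe sets called (3.96%). All 18 probe sets called in control piglets had the same sign there on average, 17 in each of the 3 animals, and 14 were also called. Of the 26 genes at least 2-fold different in each control animal, 25 had the same sign and 13 were called in the same direction. The share of all probe sets or genes with the same sign is not given. Calls in antibiotics animals use a spread estimated over all 16 arrays, control arrays included, so they are not independent of the control animals. The test of the difference between the treatments' segment differences called 9 of 11538 probe sets (0.078%), and none of the 18 or of the 26 was among them.

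SPAI-2 and PI3 had smaller mean differences in antibiotics animals, and neither passed that test. SPAI-2 differed by 0.17, 5.16 and 4.45 between the segments of antibiotics animals 86, 87 and 95 (mean 3.26), against 9.08 to 10.05 in the control animals, and PI3 by 1.16, 5.53 and 0.58 against 7.93 to 9.34. The test of each difference gave a limma adjusted p of 0.109. TLR2 had a mean of 0.87 in antibiotics animals (test of the difference, adjusted p = 0.165). SLPI had 7.10 against 6.31 in controls (adjusted p = 0.674) and EPHX1 −4.99 against −3.44 (adjusted p = 0.393). INSIG1 was the gene of the 26 with opposite signs, 1.56 in controls and −0.65 with antibiotics (adjusted p = 0.0914).

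Of the 9 probe sets whose segment difference did differ, 4 were of named genes. TDH, threonine dehydrogenase, differed by 0.18 between the segments in control and by 7.95 in antibiotics animals (limma adjusted p = 5.35e-05). In the 8 control arrays it lay between 2.14 and 2.86, near the floor, so its control difference is between floor values. It passed the filter for this test, log2 5 on at least 4 of the 16 arrays, through antibiotics arrays alone. GBP1 had control differences of 1.60 and 1.70 in 2 probe sets and antibiotics differences of −3.45 and −4.26 (adjusted p = 0.0247 each). XIRP2, an actin-binding muscle protein, had 0.95 and 5.18 (adjusted p = 0.0247). The number of such probe sets was 4, 23, 6 and 1 without control animals 83, 88, 89 and 92, and 5, 4 and 1 without antibiotics animals 86, 87 and 95.

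LEAP2 and TMPRSS15 differed more evenly in antibiotics animals. LEAP2 had −6.10, −6.71 and −7.33 there and 1.06, 0.20, −6.76 and −3.52 in control animals, and TMPRSS15 −8.91, −8.44 and −9.23 against −0.42, −6.13, −5.78 and −4.66. The test of the difference gave limma adjusted p = 0.42 and 0.275. In antibiotics animals, 266 probe sets were called and at least 2-fold higher on average in distal tissue. Over these the control animals' median difference was 0.43, 0.54, 0.39 and 0.45 in animals 83, 88, 89 and 92, with 189 to 223 of 266 in the same direction. Over the 187 called and at least 2-fold lower there it was −0.06, −0.79, −0.68 and −0.50, with 102 to 152 of 187 in the same direction. These probe sets were chosen on the antibiotics animals' own values, which enlarges theirs, so the sizes are not set against each other.

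**Figure D5:**
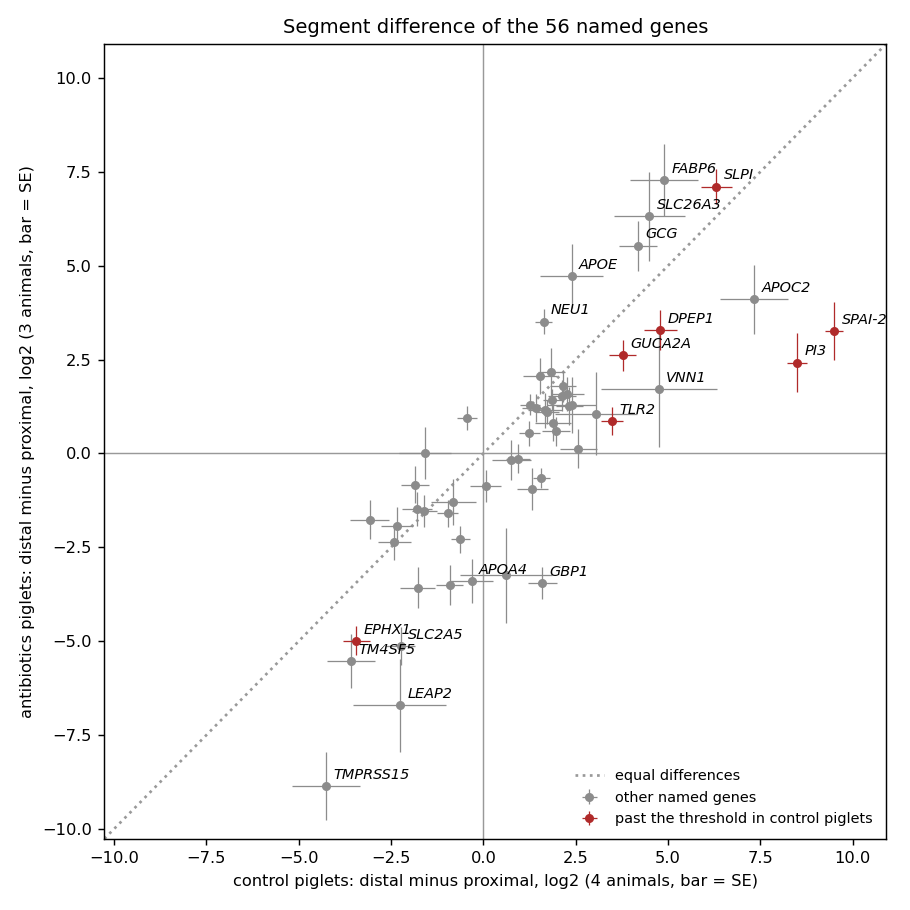
Distal minus proximal difference of the 56 named genes in control piglets (x axis, 4 animals) and in antibiotics piglets (y axis, 3 animals), both in log2 GCRMA units with bars for the SE; red points passed the threshold in control piglets and the dotted line marks equal differences. SPAI-2, PI3 and TLR2 lie to the right below the line, SLPI lies near it, and GBP1 has opposite signs in the 2 treatments.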

How the data were processed

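RNA of each segment was labelled with a 3′ IVT Express kit after Trizol and RNeasy extraction, per the labels' protocols, and GCOS 1.2, GCRMA and limma were used, per the submitters' processing notes, with settings that the sources used here do not give. The authors deposited log2 values, 1 for each probe set on each array. Groups follow the labelled segment and treatment, and the animal is read from the number that ends each name. As a check, the residuals of an animal's 2 arrays correlated across probe sets at 0.342, 0.259, 0.0811 and 0.531 for animals 83, 88, 89 and 92. Arrays of different animals gave −0.397 to 0.244. For animal 89 the check did not single out its own pair. Its distal array correlated more with the proximal array of animal 92 (0.244), and its proximal array with the distal array of animal 83 (0.168). That the samples are separate animals, and the pairing, rest on the numbers in the names.

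The 124 control probe sets of 24123 were not used. Probe sets above log2 5 on at least 4 of the 8 control arrays were tested (11089, of which 5575 had 1 gene, 121 several and 5393 none). A gene takes its brightest probe set annotated with it alone, and where a named gene had several tested, all went the same way. The paired fit used limma 3.58.1 (lmFit and eBayes, animal as a fixed block) in R 4.3.3, with Benjamini-Hochberg adjustment over all tested probe sets and a threshold of 0.05. The difference between treatments was fitted over all 16 arrays with the same block, on the 11538 probe sets above log2 5 on at least 4 of the 16 arrays. Named genes are those past the threshold (up to 15 in each direction, and up to 4 per list), the panel of 27, and others said to be chosen after their values were seen. The comparison, panel and lists were chosen with earlier results of these data known. On simulated data with independent normal noise at limma's moderated variances, 50 probe sets each were changed by 1, 2, 3 and 5. Of these, 18%, 96%, 100% and 100% were recovered, with 12 false among 169 calls. The real fit had 18 calls, which makes its adjusted threshold stricter, so these shares do not carry over to it. Alternatives were other filters, blocks, arrays in the fit, normalizations, moderation, array weights, thresholds, the mean of a gene's probe sets, the 5′ minus 3′ covariate and each animal left out. Leaving out animals 83 and 88 together was added after seeing the data. Plots used matplotlib 3.10.9 (Python 3.11.15). No genome build is named for the array files, so no coordinates are given.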

Additional observations from a re-analysis of the deposited data

Results flagged for a closer look

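Groups of 4 arrays were checked for 1 array set apart from the other 3, judged by its gap relative to the group's range. Of 112 groups (the control arrays of each named gene by segment), 9 held such an array. In 4 of them it was the distal array of animal 89: APOC3 at 11.07 (the others at 15.11 to 15.54), FABP1 at 12.92 (15.92 to 16.28), GSTA1 at 8.28 (12.14 to 12.41) and SLC26A3 at 10.95 (11.38 to 11.42). Animal 88 gave 3: the proximal array for TM4SF5 at 12.80 (8.68 to 9.34) and the distal array for SLC2A5 at 7.10 (3.59 to 4.11) and EPHX1 at 3.20 (3.15 in the others, all under the filter level). The proximal array of animal 92 stood apart for TLR2 at 6.40 (4.83 to 5.00) and that of animal 89 for PI3 at 2.15 (2.55 to 2.60, again under the filter level). The gap was small in log2 units for SLC26A3, EPHX1 and PI3. Random values would set an array apart in about 1 group in 20. That rate does not apply here, because many of these genes were chosen after their values were seen. Some were chosen for differing between animals.

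GBP1 was the named gene whose segment difference differed between treatments, by 5.05 (control minus antibiotics, limma adjusted p = 0.0247). The distal array was higher in 4 of 4 control animals and lower in 3 of 3 antibiotics animals.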

How the results depend on the processing

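Of 991 pairs of a named gene and an alternative, 884 kept the direction and side of the threshold, 31 lost a call, 65 gained one and 11 reversed. None of the reversals was of a gene past the threshold or at least 2-fold different in each animal. Much of this was fixed in advance. In these genes every animal had the same sign, so leaving animals out could not reverse them. Alternatives that change only the filter, block, moderation or threshold leave a gene's difference as it was and could reverse none. APOA4 reversed to 0.07 with array quality weights and ranged from −0.70 to 0.47 when 1 animal was left out. APOC3 reversed to −1.40 with the 5′ minus 3′ covariate and to −0.33 without animals 83 and 88, and ranged from −0.34 to 2.21 with 1 animal left out. FABP2 reversed to −0.56 and −0.27 in these 2 fits and ranged from −0.20 to 0.53, and FABP1 ranged from −1.21 to 0.01. The 18 calls became 0 with no filter, 29 with the replicate block as a random effect, 40 over all 16 arrays with no replicate block and 33 with it, 687 with array quality weights (59.7% of them higher in distal tissue, against 83.3%), 7 with the covariate, 6 to 14 with 1 animal left out, and 5 without animals 83 and 88. With no replicate block over the 8 arrays there were 19 calls, 17 of them among the 18, and dropping the pairing changed no call of a named gene past the threshold. The 9 probe sets whose segment difference differed between treatments became 1 with no filter, 22 with no replicate block, 19 at an adjusted p of 0.10, and 1 to 23 with 1 animal left out. Of 34 list medians 18 kept their sign under all alternatives, lysosomal, peptidase, cholesterol, interferon and respiratory chain genes among them. When a gene's probe sets were averaged, dim ones included, GUCA2A lost its call (1.88), and ANGPTL4, CYP2C42, GSTA1, INSIG1 and PSAP had 1.63, −0.95, −1.03, 0.92 and 0.77. The causes were not tested. Values near the floor of 2.14 limit the size of any difference that reaches it.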
